A study of Mus musculus with 33 samples.

Results

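The 10 genes studied here set the passage from G1 into S phase. They were followed across mouse livers and liver tumours with activated MYC, activated β-catenin or both: the D-type cyclins Ccnd1, Ccnd2 and Ccnd3, the E-type cyclins Ccne1 and Ccne2, the kinases Cdk4, Cdk6 and Cdk2, and the inhibitors Cdkn1a (p21) and Cdkn1b (p27). They were taken by symbol from a table of 21671 genes. All 10 were found, and all 10 passed the filter on low values in both sets of libraries (an RPKM of at least 1 in at least 3 libraries). RPKM is the number of reads per kilobase of gene, scaled to the reads of the library.

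In resting hepatocytes the D cyclins are the entry point of growth signals. Each binds Cdk4 or Cdk6, and the complex phosphorylates the retinoblastoma protein, which then releases E2F factors. E2F drives the E cyclins, which bind Cdk2 and finish the phosphorylation, so that S phase begins. p21 and p27 bind cyclin E with Cdk2 and block it, and both also help cyclin D assemble with its kinase. In the liver, cyclin D1 is known for its rise when hepatocytes leave quiescence, as after removal of part of the organ.

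Total RNA came from C57BL/6 mice. In the short-term arm, mice aged 6 to 8 weeks received AAV8-TBG-CRE, a virus that makes Cre recombinase under a hepatocyte promoter, and all livers of this arm, the wild-type controls included, were taken 4 days after it. The 4 groups of 5 livers were wild type (WT), beta-cat Ex3 (Ex3, a β-catenin allele that is stabilised when Cre removes exon 3), R26-lslMYC (MYC, a transgene at Rosa26 that Cre switches on) and R26-lslMYC with beta-cat Ex3 (MYC+Ex3). In the tumour arm, liver nodules came from Alb-CreERT2 mice with R26-lslMYC (3 MYC tumours) or with both alleles (3 MYC+Ex3 tumours). Their controls were 7 WT livers taken 4 days after 4-hydroxytamoxifen (4-OHT), so the controls were not nodule-bearing mice of the tumours' age and the labels list no Cre allele for them. Cre from a hepatocyte promoter acts on hepatocytes, whereas the RNA is of the whole tissue: in such bulk samples fewer cells of a type and less RNA per cell cannot be told apart. Each title carries its own number, which the labels do not tie to an animal, so p-values measure the spread between these samples.

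The day-4 libraries held 3.75 to 7.31 M reads in genes and the tumour-arm libraries 6.65 to 9.82 M. The RPKM scales of the 2 arms differ, so levels are compared only within an arm. The 8 hepatocyte markers were present in every library, with none at 0. Reads assigned to Myc spanned 3.12 to 4.81 RPKM in MYC livers and 0.748 to 4.11 in WT livers, which overlap, and the species of the transgene is not given, so Myc does not check the MYC label. Loss of β-catenin exon 3 cannot be seen in values per gene. RNA of skin keratins (Krt5, Krt14 and Krt17 summed) was present at 3.95 to 23.8 RPKM in 10 of the 20 day-4 livers and at 0.398 or less in the other 10; the livers with it were 3 WT, 3 Ex3, 1 MYC and 3 MYC+Ex3. The labels do not give sex; from Xist and Ddx3y, males numbered 2 in the WT group, 3 in Ex3, 3 in MYC and 4 in MYC+Ex3.

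Promoters are shown for the kinase genes, all 3 called higher with MYC at day 4, Cdk2 with a call that several alternative fits lost. These sequences were thus picked by response. The 3 motifs searched bear on the 2 alleles. They were the E-box CACGTG (bound by MYC with MAX) and the E2F forms TTTCGCGC, TTTGGCGC, TTTCCCGC and TTTGCCGC. The last was the TCF/LEF form ATCAAAG (TCF/LEF factors carry β-catenin to DNA). Both strands of windows from 250 bases before to 50 after the RefSeq start (GRCm38.p6) were read; 7 of the 10 genes had a window (9 windows in all), and Ccnd1, Ccnd2 and Ccne2 had none. No motif searched overlaps another in these windows. The 250 bases before the start are printed 5′ to 3′ on the gene's strand, with motif matches in capitals.
Cdk4, chr10:127063285-127063534, + strand: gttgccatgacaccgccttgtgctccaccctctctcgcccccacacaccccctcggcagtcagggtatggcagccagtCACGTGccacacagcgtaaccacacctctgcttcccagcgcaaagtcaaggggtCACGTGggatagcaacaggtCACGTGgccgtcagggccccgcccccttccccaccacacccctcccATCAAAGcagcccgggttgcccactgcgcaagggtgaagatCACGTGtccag
Cdk6, chr5:3343643-3343892, + strand: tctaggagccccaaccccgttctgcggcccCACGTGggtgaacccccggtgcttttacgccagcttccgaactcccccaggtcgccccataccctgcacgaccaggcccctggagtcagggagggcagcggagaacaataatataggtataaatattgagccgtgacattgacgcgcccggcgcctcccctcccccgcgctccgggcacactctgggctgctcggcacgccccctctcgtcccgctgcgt
Cdk2, chr10:128705052-128705301, - strand: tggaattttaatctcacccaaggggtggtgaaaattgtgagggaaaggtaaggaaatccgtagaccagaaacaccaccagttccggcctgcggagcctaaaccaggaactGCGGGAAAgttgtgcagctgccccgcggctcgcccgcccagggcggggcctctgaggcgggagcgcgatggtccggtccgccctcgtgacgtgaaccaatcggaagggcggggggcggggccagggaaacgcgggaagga

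The Cdk4 window held 4 E-boxes, whose first bases lie at -172, -118, -98 and -11 from the start, and 1 TCF/LEF form at -52. The Cdk6 window held 1 E-box at -220, and the Cdk2 window 1 E2F form, on the reverse strand, at -140. Of 32851 RefSeq windows of this length, 7.15% held at least 1 E-box and 0.0244% (8 windows) at least 4. An E2F form was in 2.265% of the windows and the TCF/LEF form in 3.73%. The windows of Ccne1, Ccnd3, Cdkn1a and Cdkn1b held none of these letters. A match is a run of letters, not a measured binding site.

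In WT livers at day 4 the order of mean levels was Cdk4 (44.0 ± 6.27 RPKM, SD, n = 5), Ccnd1 (30.8 ± 13.96), Cdkn1a (19.2 ± 14.05), Cdkn1b (16.4 ± 1.79), Ccnd2 (9.96 ± 1.48), Cdk6 (8.42 ± 0.824), Cdk2 (7.75 ± 1.98), Ccnd3 (3.78 ± 0.729), Ccne1 (1.78 ± 0.82) and Ccne2 (1.25 ± 0.271). RPKM is per length, so these levels can be set side by side. Neighbours in this order had overlapping libraries except Cdkn1b over Ccnd2 and Cdk2 over Ccnd3. The steadiest member between animals was Cdk6 (coefficient of variation 9.8%) and the least steady Cdkn1a (73.1%), with Ccne1 (46.1%) and Ccnd1 (45.3%) next. The E cyclins rested on few reads, 11 to 30 per WT library for Ccne1 and 13 to 24 for Ccne2.

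**Figure D1:**
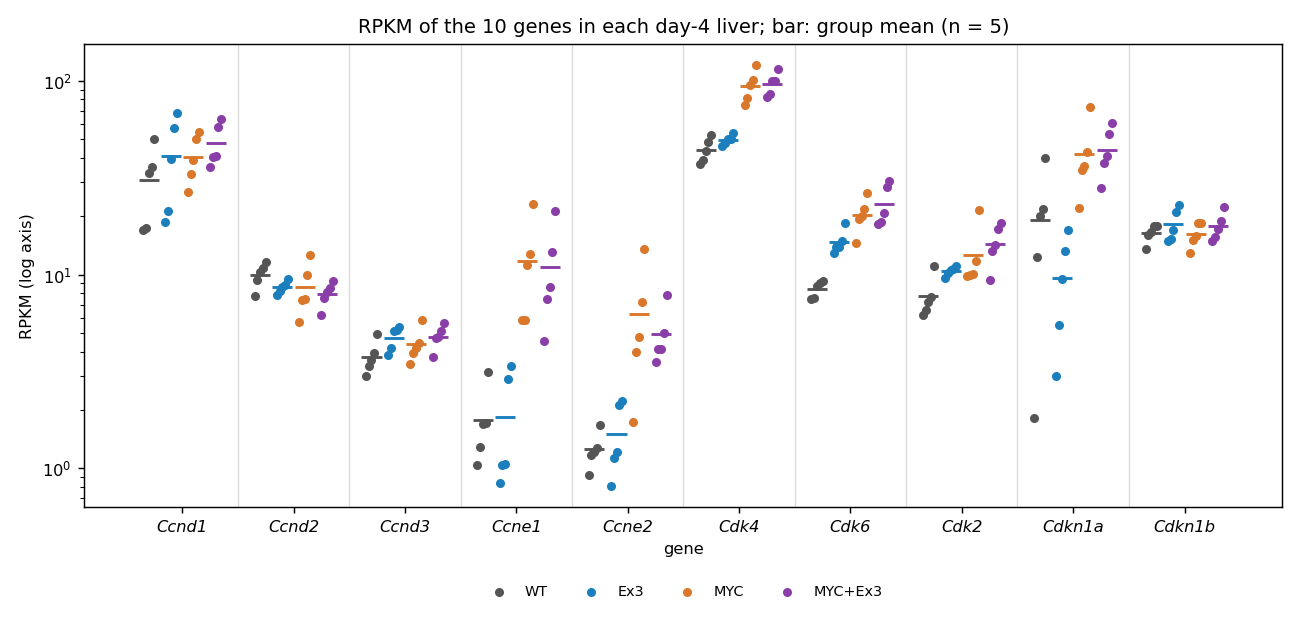
RPKM (log axis) of the 10 genes in each of the 20 day-4 livers, with dots for libraries and bars for group means (n = 5). Ccne1, Ccne2, Cdk4 and Cdk6 lie higher in MYC and MYC+Ex3 livers than in every WT liver, while Ccnd2, Ccnd3 and Cdkn1b overlap in all groups.

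MYC and WT livers were compared to see which of these genes respond within days to MYC in hepatocytes. With MYC, both E cyclins and all 3 kinases rose, while the 3 D cyclins and both inhibitors did not pass the test (limma on log2(RPKM + 1), p-values adjusted over all genes tested, called under 0.05). The 5 members called, all higher, stand beside 22.3% of the 13688 genes called in either direction, 16.9% higher and 5.36% lower. The members' median log2 change was 0.84 against 0.07 for all genes. In 4 members (Ccne1, Ccne2, Cdk4 and Cdk6) the 2 groups did not overlap, as held for 13.3% of all genes.

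Ccne1, the E cyclin that opens S phase with Cdk2, was at 1.04, 1.28, 1.69, 1.72 and 3.15 RPKM in WT livers and at 5.81, 5.82, 11.2, 12.7 and 23.1 in MYC livers. Every MYC liver lay above every WT liver, and MYC livers differed among themselves by several fold. The mean ratio was 6.60 and the log2 change 2.07 (SE 0.374, limma adjusted p = 0.000427). Its partner gene Ccne2 was at 0.922 to 1.67 RPKM in WT livers and at 1.74, 3.96, 4.79, 7.24 and 13.6 in MYC livers, a log2 change of 1.48 (SE 0.31, limma adjusted p = 0.00169). The lowest MYC liver was barely above the highest WT liver for Ccne2, and the call was lost among males (1.45, adjusted p = 0.105) and in keratin-free livers (1.20, adjusted p = 0.0657). Ccne1 made up 57.0% ± 9.49 of summed E-cyclin RPKM in WT livers and 66.6% ± 7.78 in MYC livers (SD, n = 5), shares that overlap.

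Cdk4, the main D-cyclin kinase of the liver by level here, was at 37.3, 39.0, 43.2, 48.3 and 52.3 RPKM in WT livers and at 74.6, 81.4, 94.6, 100.2 and 120.4 in MYC livers. The groups were well apart, and the log2 change of 1.07 (SE 0.125) had a limma adjusted p of 7.54e-06. The Cdk4 promoter is the one with 4 E-boxes printed above, and whether they bear on this change was not tested. The window of Ccne1, whose rise was larger, held none of the motifs searched. Cdk6, the second D-cyclin kinase, was at 7.49, 7.58, 8.74, 9.02 and 9.25 RPKM in WT livers and at 14.6, 19.3, 20.2, 21.7 and 26.2 in MYC livers. Its log2 change was 1.17 (SE 0.157, limma adjusted p = 2.39e-05; 0.0619 among females). Cdk4 kept 82.1% ± 3.32 of the summed Cdk4 and Cdk6 RPKM in MYC livers against 83.8% ± 2.14 in WT livers.

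Cdk2, the partner of the E cyclins, was at 6.18, 6.55, 7.22, 7.65 and 11.1 RPKM in WT livers and at 9.82, 9.92, 10.1, 11.8 and 21.4 in MYC livers. One WT liver lay among the MYC livers, and 1 MYC liver stood far above the others. The log2 change was 0.60 (SE 0.199, limma adjusted p = 0.0349), and the call was lost without any of 6 libraries (MYC replicates 1 and 5, WT replicates 1, 2, 4 and 5; adjusted p between 0.0587 and 0.0858). It was also lost with no filter (adjusted p = 0.0519), in a fit of the 2 groups only (0.0915), with a keratin term (0.0632), with a term for the 3 runs that the title numbers fall into, whose meaning is not given (0.0781), and in keratin-free (0.382), male (0.175) or female livers (0.269). In the authors' deposited table Cdk2 has an adjusted p of 0.072 here. Without the high library, MYC replicate 5, the change was 0.41 (adjusted p = 0.085). That library alone among the day-4 livers held both Xist (86.1 RPKM) and a sizeable level of the Y-linked Ddx3y (4.74 RPKM); whether it holds RNA of more than 1 animal was not tested.

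Cdkn1a, the p21 inhibitor, was at 1.82, 12.3, 20.1, 21.8 and 40.0 RPKM in WT livers and at 22.0, 34.7, 36.4, 42.8 and 73.4 in MYC livers. The single WT liver at 40.0 overlapped with the MYC group, and the WT livers alone differed widely. The log2 change of 1.41 (SE 0.53) did not pass (limma adjusted p = 0.061); without the WT liver at 40.0 it was 1.78 (adjusted p = 0.0216), and without MYC replicate 5 it was 1.61 (adjusted p = 0.0415). Without WT replicate 2, the liver at 1.82, it was 0.81 (adjusted p = 0.171), among males 0.75 (adjusted p = 0.406) and in keratin-free livers 1.02 (adjusted p = 0.0368). The authors' deposited table lists 0.6612 with an adjusted p of 0.276. Cdkn1b, the p27 inhibitor, was at 13.5 to 17.9 RPKM in WT livers and 12.9 to 18.5 in MYC livers, with a log2 difference of -0.02 (95% interval -0.31 to 0.27). Ccnd2 (7.74 to 11.6 in WT and 5.71 to 12.6 in MYC livers; log2 -0.22, interval -0.56 to 0.11) and Ccnd3 (3.01 to 4.93 and 3.45 to 5.82; log2 0.17, interval -0.13 to 0.47) overlapped widely.

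Ccnd1, which encodes the D cyclin most abundant in the liver, was at 17.0, 17.4, 33.4, 36.0 and 50.2 RPKM in WT livers and at 26.8, 33.0, 38.8, 49.8 and 54.5 in MYC livers, with a log2 difference of 0.46 (interval -0.24 to 1.16, limma adjusted p = 0.359). The spread followed sex in 3 of the 4 groups. The 2 male WT livers were the pair at 17.0 and 17.4, and the 3 female ones lay at 33.4 to 50.2. MYC males were at 26.8 to 38.8 and MYC females at 49.8 and 54.5, where 1 of these 2 females is replicate 5, the library with both Xist and Ddx3y. Ex3 males spanned 18.6 to 39.6 and Ex3 females were at 56.8 and 67.8. Those 2 Ex3 females also had the high summed proliferation markers of their group, given below (102 and 116 RPKM against 10.8 to 16.1 in the males). In the Ex3 group, sex and the level of cycling therefore cannot be told apart for Ccnd1. Only the MYC+Ex3 group mixed the sexes, with males at 36.1 to 63.3 and its single female at 57.5.

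In a fit with sex as a covariate, Ccnd1 was higher in female than in male day-4 livers by 0.91 on the log2 scale (SE 0.156, limma adjusted p = 0.0015, 8 females and 12 males), among 3.09% of genes called for sex. This sex term was looked at after the pattern had been seen. Without MYC replicate 5 it was 0.92 (SE 0.169, adjusted p = 0.00376, 7 females). No other member passed for sex; the next smallest adjusted p was that of Cdkn1b (0.29 higher in females, adjusted p = 0.0668). In the same fit Ccnd1 passed in MYC against WT livers (log2 change 0.64, limma adjusted p = 0.0337) and in MYC+Ex3 against WT livers (1.06, adjusted p = 0.00138). Among males alone the MYC livers lay above both WT livers with a log2 difference of 0.88 (adjusted p = 0.083), and among females alone the difference was 0.40 (adjusted p = 0.371). In the tumour arm the sex term of Ccnd1 was -0.09 (interval -0.79 to 0.62), and 4-OHT males (9.09 to 13.2 RPKM) overlapped with females (11.6 to 12.9).

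**Figure D2:**
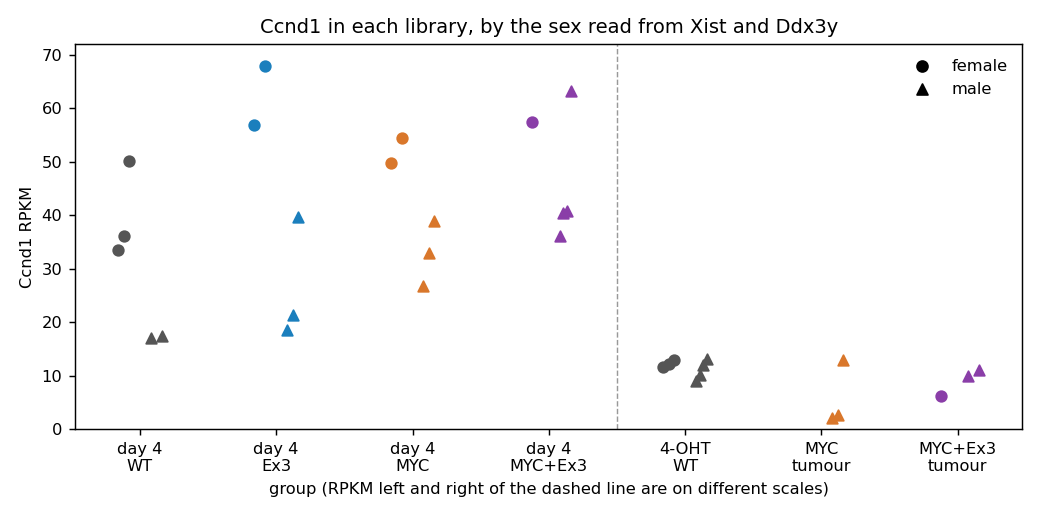
Ccnd1 RPKM in each library by group, with circles for females and triangles for males; the 2 arms are on different RPKM scales. In WT, Ex3 and MYC livers at day 4 every female lies above every male of her group, and in 4-OHT livers the sexes overlap.

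The other genes that act on these cyclins and kinases were counted in 7 lists of 42 genes, of which 39 were tested at day 4. In MYC livers 21 of them were higher and 1 lower, beside 16.9% and 5.36% of all genes. Of these rises, 5 (Cdkn3, Cdc25b, Cdc25c, Pkmyt1 and E2f2) were in genes that reached an RPKM of 1 in fewer than 3 WT livers and passed the filter through the other groups; among the other 34 genes, 16 were higher and 1 lower. Of 5 phosphatases and kinases that act on CDKs, 4 rose, or 1 of 2 without Cdc25b, Cdc25c and Pkmyt1. Among the 4 were Cdc25c (log2 2.40) and Cdc25b (1.43), which encode phosphatases that remove inhibitory marks. Of 12 pocket protein and E2F genes tested, 7 rose, led by E2f2 (1.86) and Tfdp1 (1.68), or 6 of 11 without E2f2. Rbl2, the p130 pocket protein of resting cells, fell (-0.55). Of 7 ubiquitin ligase parts (Skp1a, Skp2, Cul1, Rbx1, Cks1b, Fbxw7 and Btrc), 2 rose: Cks1b (1.83) and Skp2 (1.25), which together direct p27 to degradation. Each of these had a limma adjusted p under the threshold.

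Among 4 tested inhibitors outside the 10 genes, 2 rose, Cdkn3 (2.18) and Cdkn2c, or 1 of 3 without Cdkn3. Cdkn2c, the p18 inhibitor of Cdk4 and Cdk6, was at 7.82 ± 1.41 RPKM in WT and 23.0 ± 3.43 in MYC livers (log2 1.45, limma adjusted p = 0.000266). Of 5 S and M phase cyclins and Cdk1, 4 rose, led by Ccnb1 (4.64) and Ccna2 (4.00). The 3 genes of the CDK-activating kinase (Cdk7, Ccnh and Mnat1) did not pass, with log2 differences of -0.04, 0.09 and 0.30. Of 3 CDK chaperone genes, Cdc37 (0.57) and Hsp90ab1 (0.29) rose.

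The 8 proliferation markers all rose as well, and their summed level was 4.66 to 15.6 RPKM in WT and 137 to 343 in MYC livers. Of the tested markers of cell types, 1 of 8 hepatocyte markers was lower, 1 of 6 macrophage markers was higher, 1 of 6 endothelial markers lower, 1 of 6 stellate markers higher and 1 lower, and 0 of 6 lymphocyte and 0 of 5 cholangiocyte markers passed. Cdkn1b and the CDK-activating kinase genes did not pass in the same libraries. The part that a larger share of cycling cells has in the rise of the E cyclins and kinases was not tested. Genes that did not pass do not decide it.

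MYC+Ex3 livers were compared with WT livers, with which MYC livers also share their controls. The same 5 genes and Cdkn1a were called, 6 members, all higher, beside 24.1% of all genes called (17.9% higher). Ccne1 was at 4.56, 7.50, 8.63, 13.1 and 21.2 RPKM, a log2 change of 1.99 (SE 0.374, limma adjusted p = 0.000535). Cdk4 was at 82.0, 85.5, 99.0, 99.2 and 114.6 RPKM (log2 1.11, adjusted p = 2.52e-06) and Cdk6 at 18.2, 18.7, 20.9, 28.2 and 30.2 (log2 1.34, adjusted p = 3.94e-06). Ccne2 (log2 1.36) and Cdk2 (0.81, adjusted p = 0.00505) rose too. The call of Ccne2 was lost among males (adjusted p = 0.0944) and in keratin-free livers (0.0541), and that of Cdk2 in keratin-free livers (0.122). Ccne1, Ccne2, Cdk4 and Cdk6 were again those with no overlap, against 17.2% of all genes. All 8 proliferation markers rose in the same livers, with summed levels of 222 to 410 RPKM against 4.66 to 15.6 in WT livers. Of the other markers, 1 of 8 for hepatocytes was lower, 2 of 6 stellate markers were lower and 1 higher, and 0 passed for macrophages, endothelial cells, lymphocytes and cholangiocytes. Their part in the members' rises was not tested.

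Cdkn1a in MYC+Ex3 livers was at 28.0, 37.5, 41.0, 52.8 and 60.4 RPKM, all above 4 of the 5 WT livers (log2 1.54, SE 0.53, limma adjusted p = 0.0399). This call was fragile: it was lost with sex as a covariate (adjusted p = 0.0967), with a term for title numbers (0.0858), with no filter (0.0652), in a fit of the 2 groups only (0.0668), in keratin-bearing livers (0.282), without any of 6 libraries (MYC+Ex3 replicates 1 to 4 and WT replicates 2 and 3; adjusted p between 0.051 and 0.104) and among males (log2 0.71, adjusted p = 0.403). Without WT replicate 2, the liver at 1.82 RPKM, the change fell to 0.94. The authors' deposited table gives 0.7808 with an adjusted p of 0.174 for this comparison. Ccnd1 (36.1, 40.5, 40.7, 57.5 and 63.3 RPKM; log2 0.70, adjusted p = 0.142), Ccnd2 (-0.29, adjusted p = 0.194), Ccnd3 (0.28, adjusted p = 0.164) and Cdkn1b (0.11, adjusted p = 0.624) did not pass. The authors' deposited table has Ccnd2 lower here, by -0.3932 with an adjusted p of 0.0444.

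Ex3 alone left 10 of 10 members below the threshold against WT livers, where 0.132% of all genes (18) were called. The member nearest to it was Cdk6, at 13.0, 13.8, 13.8, 14.8 and 18.5 RPKM in Ex3 livers against 7.49 to 9.25 in WT livers. The groups did not overlap, as in 1.59% of genes (1.03% higher and 0.563% lower), yet the log2 difference of 0.74 (SE 0.157, interval 0.41 to 1.07) had a limma adjusted p of 0.0748. It passed in a fit of these 2 groups only (0.0399), with a keratin term (0.044), with a term for title numbers (0.0395) and without MYC replicate 3, which is in neither group (0.049). The authors' deposited table gives 0.6587 with an adjusted p of 0.000282 for Cdk6. Beside Cdk6, 0 members had even an unadjusted p under 0.05 in the limma fit, while 744 genes did.

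Cdk2 was at 9.58 to 11.1 RPKM in Ex3 livers and the WT livers other than the highest lay at 6.18 to 7.65 (log2 0.41, limma adjusted p = 0.929). Ccnd1 in Ex3 livers spanned 18.6 to 67.8 RPKM (log2 0.34, interval -0.36 to 1.05). Cdkn1a was at 2.99, 5.49, 9.52, 13.2 and 17.0 RPKM, lower on average than in WT livers but overlapping (log2 -0.68, interval -1.79 to 0.42). Replicates 3 and 4 of the Ex3 livers had summed proliferation markers of 102 and 116 RPKM, against 10.8 to 16.1 in the other 3. Both were female and both held keratin RNA (9.69 and 4.61 RPKM). The male replicate 5 held more keratin RNA (14.7 RPKM), with a proliferation sum of 16.1. Ccne1 was at 2.88 and 1.06 RPKM in replicates 3 and 4. The highest Ccne1 of the group, 3.39, was in a liver with a proliferation sum of 16.1. Ccne1 rested on 10 to 28 reads per Ex3 library. Both replicates 3 and 4 lay above the other 3 for Ccnd1 and for Cdkn1b (20.9 and 22.7 RPKM against 14.9 to 16.9). Both lay below them for Ccnd3 (3.83 and 4.20 against 5.10 to 5.35), and the remaining members overlapped. The highest Ccne2 (2.24), Cdk4 (53.9) and Cdk6 (18.5) of the group were in replicates 3 or 4.

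Adding Ex3 to MYC at day 4 changed 0 of 10 members in the limma fit, and 0 at an unadjusted p under 0.05, where 0.19% of all genes were called and 461 genes had an unadjusted p under 0.05. In 0 members were the groups apart, against 0.679% of all genes (0.497% higher and 0.183% lower). Intervals bound the differences: Cdk4 0.04 (-0.22 to 0.30), Cdk6 0.17 (-0.15 to 0.50), Ccne1 -0.08 (-0.86 to 0.70) and Cdkn1a 0.13 (-0.98 to 1.23) on the log2 scale. Those of Ccne1 and Cdkn1a are wide. The test of whether the effect of both alleles departs from the sum of their single effects called 0 members and 0 genes; Cdk6 had the smallest p, with -0.57 (SE 0.222, unadjusted p = 0.0187, limma adjusted p = 1), and 132 genes had an unadjusted p under 0.05.

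Set against Ex3 livers instead of WT livers, MYC+Ex3 livers had 5 members higher, beside 21.1% of all genes called (16.4% higher and 4.7% lower). In 4 of the 5, all but Cdk6, the groups did not overlap, as in 20.3% of all genes (15.2% higher and 5.02% lower). These were Ccne1 (log2 2.01), Ccne2 (1.24; adjusted p = 0.0603 among males), Cdk4 (0.94), Cdk6 (0.60, limma adjusted p = 0.00919) and Cdkn1a. Cdkn1a showed its largest difference here: all MYC+Ex3 livers (28.0 to 60.4 RPKM) lay above all Ex3 livers (2.99 to 17.0), with a log2 change of 2.23 (SE 0.53, limma adjusted p = 0.00466). Among males alone it was 2.26 (adjusted p = 0.00535). Cdk2 did not pass (0.41, adjusted p = 0.158), with Ex3 livers at 9.58 to 11.1 RPKM and MYC+Ex3 livers at 9.34 to 18.4. Within the keratin-bearing livers (3 against 3) only Cdk4 and Ccne2 of these 5 passed, and Cdk6 was at 0.32 (adjusted p = 0.196).

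**Figure D3:**
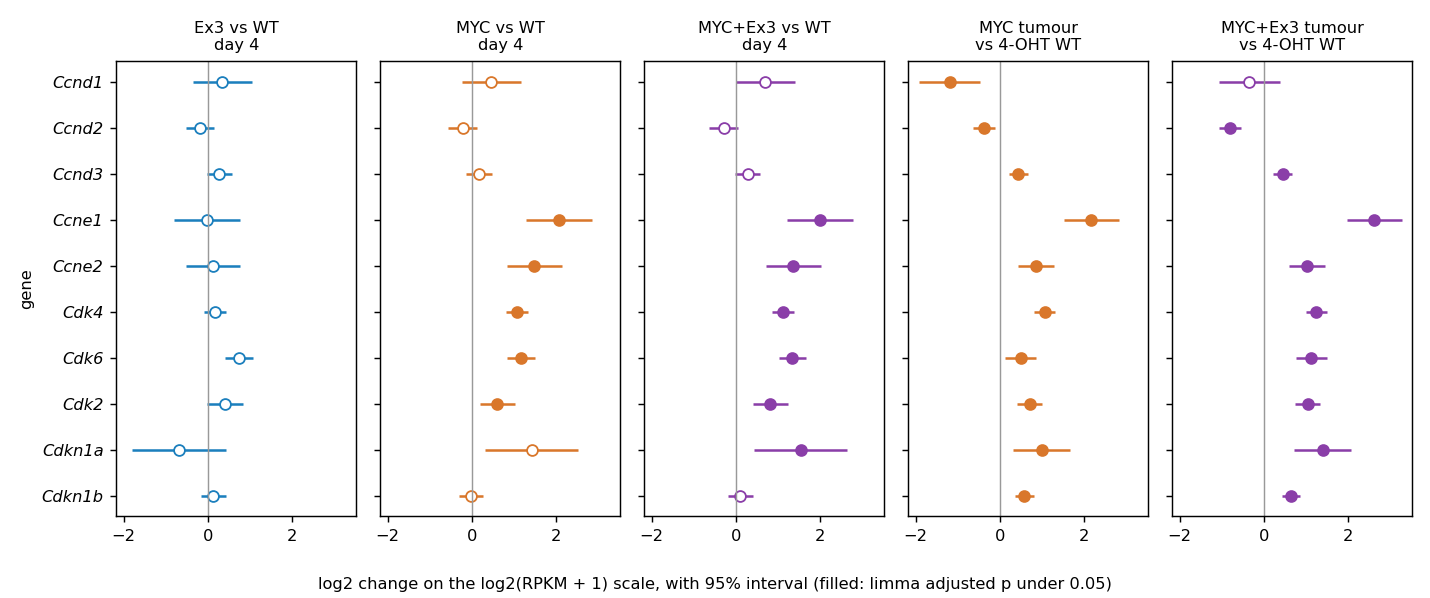
Log2 change of each gene with its 95% interval in 5 comparisons with wild-type liver; filled points have a limma adjusted p under 0.05. Ccnd3, both E cyclins, all 3 kinases and Cdkn1a lie to the right of 0 in all 4 panels with MYC, called or not. Ccnd1 and Ccnd2 lie to the left in both tumour panels. In the tumour arm Ccne2 passed the filter only through the tumours.

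The rule for likeness compared every gene's log2 levels, relative to the WT mean, with those of a member over the 20 day-4 livers (13687 genes). By the root mean square difference, the closest to Cdk4 were Banf1 (0.147), Xrcc6 (0.148) and Tyms (0.162), to Ccne2 Zgrf1 (0.282), Cdc7 and Hat1 (both 0.30), and to Ccne1 Slfn9 (0.427), Atad2 and Lrr1. The closest to Ccnd1 were Il15 (0.28), Mpzl2 (0.33) and Emp2 (0.393). Nothing lay close to Cdkn1a, whose nearest genes were Hilpda (0.623), Ttc27 and Nop58. The livers compared share their groups and libraries, so these are descriptions.

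In 4-OHT livers of the tumour arm, Cdk4 (12.6 ± 1.32 RPKM, SD, n = 7) and Ccnd1 (11.6 ± 1.48) again led and overlapped. Cdkn1b (4.57 ± 0.354), Cdkn1a (3.70 ± 2.25), Cdk6 (3.60 ± 0.475), Cdk2 (3.01 ± 0.153), Ccnd2 (2.65 ± 0.364), Ccnd3 (1.56 ± 0.151), Ccne1 (1.39 ± 0.973) and Ccne2 (0.525 ± 0.068) followed. Neighbours in this order overlapped except Ccnd1 over Cdkn1b and Ccnd2 over Ccnd3. Their titles carry numbers from 2 sets, S14 (4 livers) and S15 (3 livers). The S14 livers had the lower Ccne1 (0.601 to 0.855 RPKM against 1.11 to 3.20) and the higher Cdkn1a (2.81 to 7.79 against 1.49 to 2.32). Their summed proliferation markers were also higher (32.0 to 35.9 RPKM against 14.3 to 18.3), so the controls of both tumour groups were mixed in this respect.

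**Figure D4:**
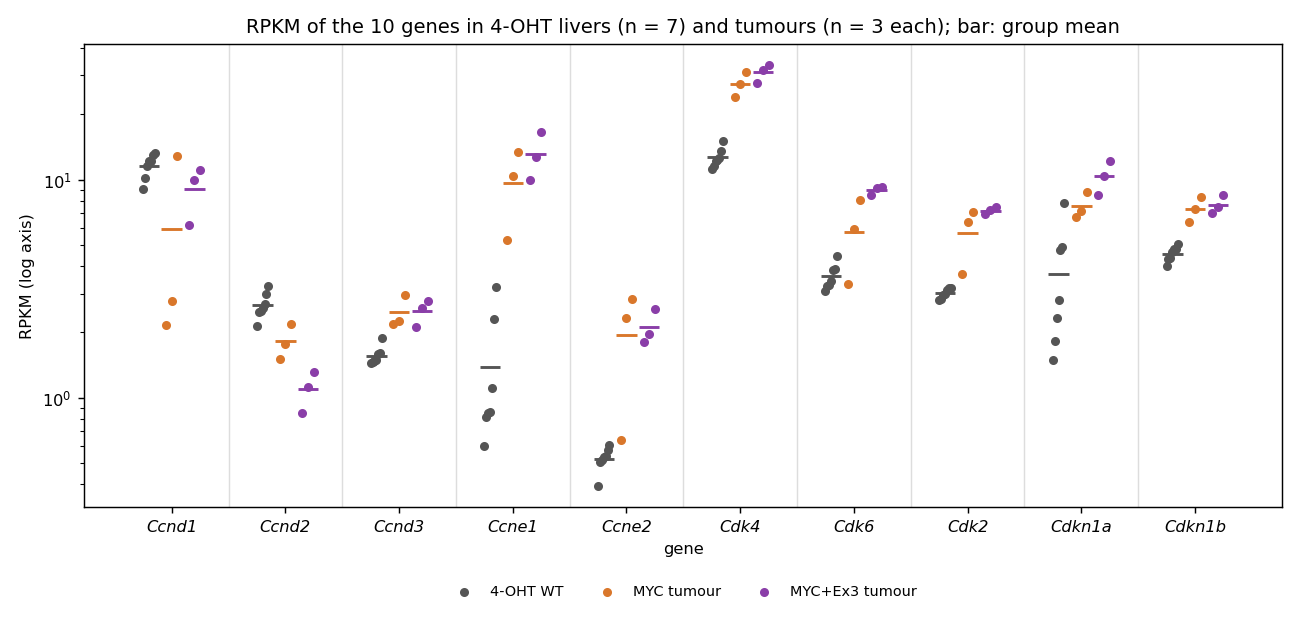
RPKM (log axis) of the 10 genes in 7 WT livers after 4-OHT, 3 MYC tumours and 3 MYC+Ex3 tumours, with dots for libraries and bars for group means. Ccnd3, Ccne1, Ccne2, Cdk2, Cdk4 and Cdkn1b lie above every 4-OHT liver in all 6 tumours, of which Ccne2 passed the filter only through the tumours. Ccnd2 lies below every 4-OHT liver in the MYC+Ex3 tumours, and 1 MYC tumour stands apart for Ccnd1.

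MYC tumours were compared with 4-OHT livers to see the state of these genes in established nodules. All 10 members were called, 8 higher and 2 lower, beside 49.8% of 11854 genes called (36.2% higher and 13.7% lower). Ccne2 was under an RPKM of 1 in every 4-OHT liver and passed the filter only through the tumours, so its call adds nothing to that count. The groups were apart in 6 members, all higher in tumours (5 without Ccne2), against 35.2% of all genes (26.3% higher and 8.89% lower). The median of all genes moved by 0.19 on the log2 scale in this comparison, and the members' median by 0.64. With libraries rescaled by their median ratio, Cdk6 lost its call (log2 0.31, limma adjusted p = 0.139) and the other 9 members kept theirs.

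Ccne1 was at 5.31, 10.3 and 13.3 RPKM in MYC tumours, above all 4-OHT livers (0.601 to 3.20), with a log2 change of 2.17 (SE 0.303, limma adjusted p = 7.15e-05). Ccne2 was at 0.638, 2.33 and 2.84 RPKM against 0.392 to 0.606 (log2 0.85, adjusted p = 0.00283). Cdk2 was at 3.68, 6.36 and 7.06 RPKM against 2.81 to 3.19 (log2 0.70, adjusted p = 0.000767). The same tumour, replicate 1, was the lowest of the 3 for these 3 genes, and its summed proliferation markers were also lowest (64.0 RPKM against 101.4 and 117.1).

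Cdk4 was at 23.9, 27.4 and 31.1 RPKM in MYC tumours against 11.2 to 15.1 (log2 1.06, SE 0.117, limma adjusted p = 1.18e-05). Cdk6 was at 3.33, 5.92 and 8.02 RPKM against 3.08 to 4.44, so 1 tumour lay within the controls (log2 0.50, adjusted p = 0.0259); in the authors' deposited table its adjusted p is 0.127. The value rests on single tumours: it was 0.26 (adjusted p = 0.214) without replicate 3, 0.79 (adjusted p = 0.000384) without replicate 2 and 0.45 (adjusted p = 0.0743) without replicate 1. It also missed the threshold with sex as a covariate (0.0617) and among males (0.121). Both inhibitors were higher: Cdkn1a at 6.73, 7.17 and 8.79 RPKM against 1.49 to 7.79 (log2 0.99, adjusted p = 0.0175) and Cdkn1b at 6.36, 7.35 and 8.34 against 4.00 to 5.05 (log2 0.58, SE 0.103, adjusted p = 0.000428). The Cdkn1a call was lost without replicate 1 (0.89, adjusted p = 0.0559) and among males (adjusted p = 0.0719), and the authors' deposited table lists 0.0966. Cdkn1b, which did not pass in any day-4 comparison, lay above every control here. Ccnd3 was at 2.19, 2.25 and 2.96 RPKM against 1.44 to 1.87 (log2 0.43, adjusted p = 0.00366).

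Ccnd1 was at 2.14, 2.76 and 12.9 RPKM in MYC tumours and at 9.09 to 13.2 in 4-OHT livers. In 2 tumours the level was well under the lowest control, and the third lay inside the control range. The log2 change was -1.19 (SE 0.338, limma adjusted p = 0.00954); without replicate 1 it was -0.79 (adjusted p = 0.0637) and without replicate 2 it was -0.92 (adjusted p = 0.057). The tumour at 12.9, replicate 3, was also the one with a low Ddx3y (2.35 RPKM against 12.5 and 21.6 in the other two). Ccnd1 made up 35.0% to 76.5% of summed D-cyclin RPKM in MYC tumours and 65.9% to 77.4% in 4-OHT livers.

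Ccnd2 was at 1.51, 1.76 and 2.17 RPKM in MYC tumours against 2.12 to 3.23 (log2 -0.38, SE 0.118, limma adjusted p = 0.0165), and its call was lost without replicate 1 (-0.30, adjusted p = 0.0661) or replicate 3 (-0.37, adjusted p = 0.0503). Markers of cells other than hepatocytes fell too. Of 6 macrophage markers 5 were lower, with a summed level of 26.6 to 96.5 RPKM against 94.8 to 132.7 in controls, and of 6 endothelial markers 4 were lower (23.3 to 37.3 against 40.5 to 68.1). Of 6 stellate and fibroblast markers 3 were lower and 2 higher (23.0 to 39.3 against 34.3 to 44.0), and 0 of 3 tested lymphocyte, 0 of 2 tested cholangiocyte and 0 of 8 hepatocyte markers passed; 0 markers of these lists were at 0 in every tumour. Their part in the lower Ccnd2 was not tested.

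With the 4 S14 livers as the only controls, 6 members were called in MYC tumours: the calls of Ccnd1 (adjusted p = 0.0577), Ccnd2 (0.0618), Cdk6 (0.0762) and Cdkn1a (0.087) were lost. With the 3 S15 livers 7 were called, without Ccnd2 (0.0852), Ccnd3 (0.0678) and Cdk6 (0.12). Without MYC tumour replicate 1 the count was 6. Each of these counts includes Ccne2, which passed the filter only through the tumours. The share of all genes called in these fits is not given here, so the lower counts cannot be set against it.

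In MYC+Ex3 tumours 9 members were called, 8 higher and Ccnd2 lower (7 higher without Ccne2, which again passed the filter only through the tumours), beside 60.6% of all genes (42.3% higher and 18.4% lower); these controls are shared with the MYC tumours. The median of all genes moved by 0.23. The 3 tumours lay close together in most members. Ccne1 was at 9.92, 12.7 and 16.5 RPKM (log2 2.61, SE 0.303, limma adjusted p = 6.90e-06), a mean ratio of 9.38. Ccne2 was at 1.79, 1.96 and 2.56 RPKM (log2 1.02) and Cdk2 at 6.94, 7.22 and 7.45 (log2 1.03, adjusted p = 1.86e-05). Cdk4 was at 27.8, 31.8 and 33.5 RPKM (log2 1.24, adjusted p = 1.21e-06), and Cdk6 at 8.48, 9.18 and 9.19 (log2 1.12, adjusted p = 7.12e-05), above all controls. Leaving Ccne2 aside, the other 8 members called were free of overlap with the controls, which held for 56.1% of all genes.

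The inhibitors were higher in MYC+Ex3 tumours as well: Cdkn1a at 8.51, 10.4 and 12.1 RPKM (log2 1.39, limma adjusted p = 0.00157) and Cdkn1b at 7.005, 7.46 and 8.53 (log2 0.64, adjusted p = 0.000111). Ccnd3 was at 2.12, 2.57 and 2.78 RPKM (log2 0.45, adjusted p = 0.00208). Ccnd2 was at 0.85, 1.11 and 1.31 RPKM, below all controls (log2 -0.80, SE 0.118, adjusted p = 5.06e-05), and its share of D-cyclin RPKM was 8.62% ± 0.453 (n = 3) against 17.0% ± 3.58 (n = 7). In these tumours 4 of 6 macrophage, 4 of 6 endothelial, 4 of 6 stellate and 3 of 3 tested lymphocyte markers were lower, with summed levels of 46.3 to 56.1, 25.0 to 29.7, 21.5 to 26.0 and 1.46 to 1.61 RPKM against 94.8 to 132.7, 40.5 to 68.1, 34.3 to 44.0 and 2.89 to 8.27; 1 of 2 tested cholangiocyte markers was lower, and so were 4 of 8 hepatocyte markers (summed levels of 210.9 to 274.0 against 255.5 to 350.3). A single stellate marker was higher, as were 3 of 3 tested erythroid markers (46.1 to 54.4 against 12.7 to 29.8). The part of these cells in the lower Ccnd2 was not tested. Ccnd1 was at 6.22, 9.95 and 11.1 RPKM and did not pass (log2 -0.35, interval -1.07 to 0.38, adjusted p = 0.388), whereas the authors' deposited table gives -0.5565 with an adjusted p of 0.0185.

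Of 38 pathway genes tested in the tumour arm, 26 were higher and 1 lower in MYC tumours, beside 36.2% and 13.7% of all genes. In MYC+Ex3 tumours 34 were higher and 0 lower, beside 42.3% and 18.4% of all genes. Of the 38, 6 (Cdkn1c, Cdkn3, Skp2, Cdc25c, Pkmyt1 and E2f2) reached an RPKM of 1 in fewer than 3 4-OHT livers and passed the filter through the tumours. Among the other 32, 21 were higher and 1 lower in MYC tumours, and 28 higher and 0 lower in MYC+Ex3 tumours. In MYC+Ex3 tumours 11 of 12 pocket protein and E2F genes rose, led by E2f2 (1.95) and Tfdp2 (1.52), and 5 of 5 S and M phase genes, led by Ccnb1 (2.33) and Ccnb2 (2.16). All 5 phosphatases and inhibitory kinases rose, led by Cdc25c (1.82) and Cdc25a (1.78), as did 6 of 7 ubiquitin ligase parts, led by Cks1b (1.66) and Skp2 (1.23). Without the genes that passed the filter through the tumours, 3 of 3 phosphatases and inhibitory kinases were higher. The same held for 5 of 6 ubiquitin ligase parts and 10 of 11 pocket protein and E2F genes. Of the CDK-activating kinase genes Mnat1 (0.66) and Ccnh (0.54) rose, and of the chaperones Cdc37 (0.81) and Hsp90aa1 (0.64). Of the 3 tested inhibitors, Cdkn2c (0.89) alone did not owe its place to the tumours. Cdkn1c (p57), which did, was at 12.9 ± 5.41 RPKM in MYC+Ex3 tumours and 0.773 ± 0.36 in 4-OHT livers (log2 2.93, limma adjusted p = 0.000444). Each gene named here had a limma adjusted p under the threshold. The 8 proliferation markers rose in both tumour groups, with summed levels of 113.0 to 136.0 RPKM in MYC+Ex3 tumours and 14.3 to 35.9 in 4-OHT livers.

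Between the 2 tumour genotypes 0 members were called by limma, beside 4.13% of all genes (2.02% higher and 2.1% lower), with 2 members and 2089 genes at an unadjusted p under 0.05. Those 2 were Cdk6, higher with Ex3 in every tumour (8.48 to 9.19 against 3.33 to 8.02 RPKM; log2 0.62, interval 0.19 to 1.05, adjusted p = 0.111), and Ccnd2, lower in every one (0.85 to 1.31 against 1.51 to 2.17; log2 -0.43, interval -0.73 to -0.13, adjusted p = 0.112). Groups that did not overlap were found in 16.3% of all genes (8.59% higher and 7.71% lower). Ccnd1 differed by 0.85 (interval -0.01 to 1.70, adjusted p = 0.291). Without MYC tumour replicate 3, which holds the high Ccnd1, the difference was 1.52 (adjusted p = 0.000804) and that of Cdk6 was 0.86 (adjusted p = 0.0122), so 1 library decides both.

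Exons of 7 members share bases with a gene on the other strand in the GENCODE vM21 annotation. The pairs with a named gene are Cdk4 with Tspan31 (31.2% of its exon bases), Ccnd1 with Lto1, listed as Oraov1 (21.9%), Ccnd3 with Bysl (14.8%) and Ccne2 with Ints8 (10.5%); Ccnd2, Cdk6 and Cdkn1a overlap predicted gene models. The kit keeps strand, but whether the counting used it is not given. Tspan31 did not move with Cdk4: it was at 169 RPKM in WT and 145 in MYC livers on average (log2 -0.22, limma adjusted p = 0.0776), and it was lower in MYC tumours (-0.50, adjusted p = 0.00647). Reads of Tspan31 and Cdk4 could still be mixed. That would bear on the level of Cdk4, its share with Cdk6 and the size of its changes, and was not tested. Oraov1 differed by -0.36 in MYC livers (adjusted p = 0.0724). It was lower in MYC+Ex3 tumours (-0.47, adjusted p = 0.00321), where Ccnd1 differed by -0.35, and in MYC tumours it differed by -0.21 (adjusted p = 0.152); reads of these 2 genes could be mixed as well. Bysl rose in MYC tumours by 0.90 (adjusted p = 0.00087), beside the rise of Ccnd3, and in MYC livers by 0.91 (adjusted p = 0.0132), where Ccnd3 did not pass; reads of these 2 genes could be mixed. Ints8 differed by 0.02 in MYC livers (adjusted p = 0.958), where Ccne2 rose, and was higher by 0.39 in MYC tumours (adjusted p = 0.0248).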

How the data were processed

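RNA-seq libraries numbered 33 (a stranded total RNA kit, per the labels' protocols). The authors deposited RPKM per gene and library, and also, for each of their comparisons, a log2 fold change and an adjusted p-value. Per the submitters' processing notes, TopHat2 2.0.8, TopHat, SAMtools, featureCounts 1.4.5-p1, DESeq2 and build mm9 were used; removal of duplicate reads and the strand setting are not given in the sources used here. The largest RPKM of any gene was only 220 to 396 per day-4 library. In the tumour arm it was 42.9 to 67.5 per library, where the highest member value was 33.5. A ceiling on high values was not tested. Among the members it would flatten Cdk4 most, and it could flatten the abundant hepatocyte markers too. The same holds for Tspan31, at 169 RPKM on average in WT livers at day 4. Within each gene the values were whole multiples of 1 read (tolerance 0.01), so reads behind RPKM were recovered for 100% of 20485 genes not at 0 everywhere; the members had 10 to 1682 reads per day-4 library and 33 to 2330 in the tumour arm.

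Genes with an RPKM of at least 1 in 3 libraries were tested on log2(RPKM + 1), which understates changes of low genes, with limma 3.58.1 (R 4.3.3, trended, two-sided, Benjamini-Hochberg over all genes of a comparison, called under 0.05). All 20 day-4 livers were fitted together, and the 13 tumour-arm libraries together. The script was tested on simulated data. Members are those of the rule; pathway genes named are up to 2 rises and 2 falls per list. Promoter sequences are RefSeq's. Members and lists were chosen with earlier results of these data known. Alternatives were another pseudocount, filters, rescaling, a sex or keratin term, subsets of libraries and leaving out each library; the subsets by sex, a term for runs of title numbers and the sex term without 1 library were added after the data were seen. Data columns from outside the series numbered 0.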

Additional observations from a re-analysis of the deposited data

Results flagged for a closer look

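Of 50 member and group combinations examined for a sample far from the others, 2 stood out, close to the 1 in 20 that chance gives. Cdk2 in MYC replicate 5 at day 4 was at 21.4083 RPKM, against 9.82 to 11.8 in the other 4 MYC livers. Ccnd3 in replicate 6 of the 4-OHT livers was at 1.8675 RPKM, against 1.435 to 1.599 in the other 6. Mean differences of Ccnd1 had opposite signs in the 2 arms under MYC+Ex3: relative to WT livers the mean log2 difference was 0.6963 at day 4, with all 5 livers above the WT mean (0.34 to 1.13), and -0.347 in tumours, with all 3 below it (-0.79 to -0.05). The difference between the arms was not tested, and neither value passed on its own.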

How the results depend on the processing

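No paired analysis was possible because the labels give no replicate numbers that groups share. Title numbers of the day-4 livers fall into 3 runs that cross the groups, whose meaning is not given; a term for these runs, chosen after seeing the data, gave 1 member in Ex3, 4 in MYC and 5 in MYC+Ex3 livers against WT. All 6 livers of the first run were keratin-free. Across the alternatives the number of members called was within 1.5 times the reported one except as follows. In Ex3 against WT livers it was 1 in a fit of only the groups compared and 1 with a keratin term (reported 0). In MYC against WT livers it was 3 among males only and 3 among females only (reported 5). In MYC+Ex3 against Ex3 livers it was 2 in keratin-bearing livers only (reported 5), and in MYC tumours 6 with S14 livers only (reported 10). Leaving out 1 library at a time gave 0 to 1 members in Ex3 livers, 4 to 5 in MYC and 5 to 6 in MYC+Ex3 livers against WT, 5 against Ex3 in every fit, 6 to 10 in MYC tumours, 9 in MYC+Ex3 tumours in every fit, and 0 to 2 between tumour genotypes. The share of all genes called in each of these fits is not given here, so changes in the counts cannot be set against it. Counts in tumours against 4-OHT livers include Ccne2 wherever it was tested. Of 2490 values of single members under alternatives, 95 changed sign, none of them called before or after, and 0 called values reversed. Ccne1 and Cdk4 kept their calls against WT livers in each alternative and each fit without 1 library, in both arms. The keratin-bearing subset could not be fitted for MYC livers (1 library). At an RPKM of 5 the filter left 7 members in the tumour arm. Precision is limited by 5 livers or 3 tumours per group and by the few reads of the E cyclins in WT livers.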

Other observations

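Levels of other inhibitors of the family, picked after their values were seen, follow. Among MYC tumours, Cdkn1c (p57) had an RPKM of 0.151 in replicate 1 but 13.0 and 11.2 in replicates 2 and 3; the 4-OHT livers spanned 0.508 to 1.503. That first tumour was also the lowest of the 3 for Ccne1, Ccne2 and Cdk2. Cdkn2c in Ex3 livers was at 17.1 and 23.8 RPKM in replicates 3 and 4, those with high proliferation markers, and at 6.14 to 10.7 in the other 3. Cdkn2a (p16 and p19ARF) was at or below 0.469 RPKM in every library of both arms, and Cdkn2d at or below 0.668.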
